A study of Mus musculus with 3 samples.

Results

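Krüppel-like factors (KLFs) are transcription factors named after a gap gene of Drosophila. They bind CACCC elements and related GC-rich DNA through zinc fingers at the C-terminal end, which are much alike across the family, while the rest of the protein differs between members and recruits activators or repressors. In monocytes and macrophages they are known for setting the balance between quiescence, inflammatory activation and alternative activation. The 8 members described here are Klf2, Klf3, Klf4, Klf6, Klf7, Klf9, Klf10 and Klf13, without Klf1, the erythroid factor. They were taken from the array annotation as all probe sets that carry 1 of these symbols alone, which gave 30 probe sets of the 34945 with 1 gene symbol, or 8 genes of 18193. A probe set is a group of short probes read as 1 value, and 28 of the 30 were above log2 5.02, the floor used here, on at least 1 array.

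RNA was profiled on 3 Affymetrix arrays, with 1 array each for red pulp macrophages, Spic-positive monocytes and Spic-negative monocytes of the adult mouse spleen. Every mouse carried 1 Spic allele with a GFP reporter, Spic(igfp/+), so the 3 groups share the reporter allele and none is wild type. The macrophages, which clear aged red cells and recycle their iron, were sorted as high for the macrophage surface antigen encoded by Adgre1 and for the reporter. The monocytes were sorted as CD11b and Ly6C positive, with or without the reporter, after beads had removed cells with CD4, CD8 or B220; whether that step also preceded the macrophage sort is not clear from the design text. The labels do not say how many mice gave each RNA or whether the groups shared mice. With 1 array a group there is no spread between animals, so differences are described by size and none was tested. In RNA from a sorted population, fewer cells of a type and less RNA per cell cannot be told apart.

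Of the genes behind the sort, Spic was at log2 12.23 in red pulp macrophages, 9.22 in Spic-positive monocytes and 5.66 in Spic-negative monocytes. Adgre1, the gene of the antigen used in the macrophage sort, was at 12.50 in macrophages, 10.67 in Spic-positive and 10.77 in Spic-negative monocytes. Itgam, which encodes CD11b, was at 5.23 in macrophages, 7.37 in Spic-positive and 8.68 in Spic-negative monocytes, so it differed by -1.30 between monocyte populations that were both sorted as positive. All 11 genes of a red pulp macrophage list were at least 2-fold higher in macrophages than in Spic-negative monocytes, and the 6 measured genes of a classical monocyte list were all lower by 2-fold or more. The arrays also differed in ways that touch the KLF values. Xist was at 11.95 in macrophages, 4.70 in Spic-positive and 4.63 in Spic-negative monocytes. The Y-linked gene Eif2s3y was at 3.31 in macrophages, 9.56 in Spic-positive and 10.10 in Spic-negative monocytes, so the sex of the mice and the cell type cannot be told apart in comparisons with macrophages (these genes were chosen after their values were seen). The control for Gapdh read 1.61 log2 higher at its 3' end than at its 5' end in macrophages, 2.25 in Spic-positive monocytes and 0.48 in Spic-negative monocytes, a measure of how complete the labelled RNA is. The same measure for beta-actin was 1.13 in macrophages, 0.57 in Spic-positive and 0.74 in Spic-negative monocytes. The 2 controls thus put the arrays in different orders. Hybridization controls, added after labelling, had a median of 10.16 in macrophages, 12.41 in Spic-positive and 10.23 in Spic-negative monocytes. The part of any of these in the results below was not tested.

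The sequences just upstream of the genes are shown for Klf2, which carries a match to the MEF2 consensus, and for the members that differed by 2-fold between macrophages and Spic-negative monocytes: Klf3, Klf9 and Klf13, which were lower, and Klf7, which was higher. RefSeq sequences on build GRCm38.p6 were matched for 7 of the 8 members, and the 250 bases before the transcript start that the table uses are printed 5′ to 3′ on the gene's strand. They lie at chr8:72318812-72319061 (plus strand) for Klf2, chr5:64803271-64803520 (plus strand) for Klf3, chr19:23140976-23141225 (plus strand) for Klf9, chr7:63938916-63939165 (minus strand) for Klf13 and chr1:64121390-64121639 (minus strand) for Klf7. For Klf7 the start used in the table lies 956 bases inside the outermost annotated end of the gene, which has several transcripts, so its window lies within the annotated gene. The other 6 windows end where the annotated gene begins. Capitals mark CACCC, read on either strand, and in Klf2 also the MEF2 match.
Klf2: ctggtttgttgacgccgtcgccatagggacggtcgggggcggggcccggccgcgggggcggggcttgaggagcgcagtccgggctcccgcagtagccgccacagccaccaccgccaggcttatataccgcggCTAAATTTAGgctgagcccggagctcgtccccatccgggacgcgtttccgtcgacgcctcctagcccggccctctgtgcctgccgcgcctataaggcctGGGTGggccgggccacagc
Klf3: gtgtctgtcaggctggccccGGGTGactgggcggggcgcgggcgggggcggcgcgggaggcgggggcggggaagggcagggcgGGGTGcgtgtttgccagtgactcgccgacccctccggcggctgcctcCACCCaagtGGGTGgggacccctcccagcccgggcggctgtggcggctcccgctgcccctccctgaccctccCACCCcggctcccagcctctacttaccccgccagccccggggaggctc
Klf9: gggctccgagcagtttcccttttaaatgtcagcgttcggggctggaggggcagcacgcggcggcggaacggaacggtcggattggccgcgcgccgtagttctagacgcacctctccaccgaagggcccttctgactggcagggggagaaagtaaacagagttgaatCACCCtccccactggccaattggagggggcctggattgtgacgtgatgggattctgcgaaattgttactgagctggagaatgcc
Klf13: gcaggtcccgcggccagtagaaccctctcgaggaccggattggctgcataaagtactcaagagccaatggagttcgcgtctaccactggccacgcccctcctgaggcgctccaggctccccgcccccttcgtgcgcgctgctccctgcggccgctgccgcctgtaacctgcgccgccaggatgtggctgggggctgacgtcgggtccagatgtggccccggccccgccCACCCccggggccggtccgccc
Klf7: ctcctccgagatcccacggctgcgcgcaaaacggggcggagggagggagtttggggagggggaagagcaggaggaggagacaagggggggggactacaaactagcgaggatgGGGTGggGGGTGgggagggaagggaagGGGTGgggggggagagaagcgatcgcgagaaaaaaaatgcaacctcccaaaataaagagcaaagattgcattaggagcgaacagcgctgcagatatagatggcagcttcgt

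The upstream stretches were rich in G and C. Their GC content was 71.2% for Klf2, 78.4% for Klf3, 59.6% for Klf9, 71.6% for Klf13 and 59.2% for Klf7, and 74.0% for Klf4 and 64.8% for Klf6, against a median of 52.4% over all 32851 promoter windows of the table. CACCC, the element KLF proteins bind, was searched on both strands and occurred in 5 of the 7 windows: 5 times in Klf3, 3 times in Klf7 and 1 time each in Klf2, Klf9 and Klf13. It was absent from the Klf4 and Klf6 windows, and 52.0% of all windows held it. GGGCGG, the GC box bound by SP proteins, was in 6 of the 7 windows and in 32.7% of all, with 1 CACCC each in Klf3 and Klf13 sharing bases with a GC box. The MEF2 consensus matched only in Klf2 among the 7 windows, as CTAAATTTAG, 118 to 109 bases before the start, and in 2.92% of all windows. The forkhead motif GTAAACA matched only in Klf9, and in 3.17% of all. A match is a description of letters and not evidence of binding.

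In red pulp macrophages against Spic-negative monocytes, 1 member was at least 2-fold higher, Klf7, and 3 were at least 2-fold lower, Klf3, Klf9 and Klf13. For scale, 19.6% of the 12375 genes that passed the floor were higher by 2-fold or more in this comparison, and 11.3% were lower by as much. The median difference of the 8 members was -0.31 log2, beside 0.03 for all genes. Each gene is represented by the probe set that was brightest on average, and no gene's level is set against another's.

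**Figure D1:**
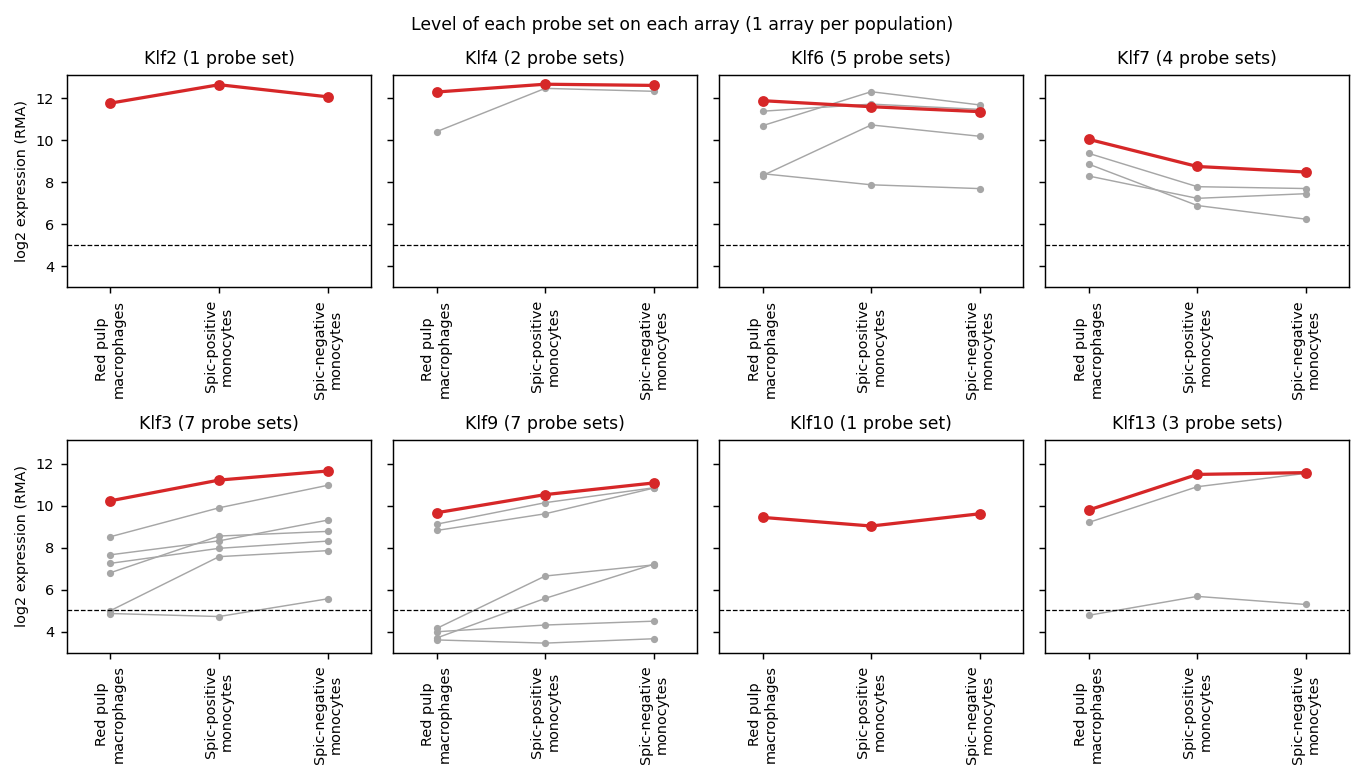
Log2 expression (vertical axis) of every probe set of the 8 KLF genes in red pulp macrophages, Spic-positive monocytes and Spic-negative monocytes, 1 array each. Red lines are the probe set with the highest mean, grey lines the others, lines only join values of 1 probe set, and the dashed line is the floor at 5.02; all Klf7 probe sets are highest in macrophages, while those of Klf4 and Klf6 part ways on the macrophage array.

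Klf7, best known from the mouse as a factor of sensory neuron development and close in sequence to Klf6, was the member that was higher in macrophages. Its brightest probe set read log2 10.05 in red pulp macrophages, 8.76 in Spic-positive monocytes and 8.49 in Spic-negative monocytes. On this probe set the macrophage array was highest and the monocyte arrays lay close together. Over the 4 Klf7 probe sets Spic-positive monocytes differed from Spic-negative monocytes by -0.22 to 0.65, with 3 higher and 1 lower. The difference was 1.56 against Spic-negative monocytes, or 2.94-fold, and 1.29 against Spic-positive monocytes, or 2.45-fold. All 4 Klf7 probe sets pointed the same way, with differences of 0.84 to 2.62 against Spic-negative and 1.06 to 1.97 against Spic-positive monocytes. All 4 were made from the same sequence record.

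Klf13, a repressor that works through the SIN3A corepressor and is known in human T cells as an activator of the chemokine gene CCL5, had the largest difference downwards of the 8 when each gene was read by its brightest probe set. With the mean of probe sets it was -1.54 against Spic-negative monocytes, beside -1.75 for Klf9 and -1.73 for Klf3. With the median it was -2.34, beside -3.06 for Klf9, a value that rests on a macrophage level below the floor. The brightest probe set of Klf13 read log2 9.79 in red pulp macrophages, 11.49 in Spic-positive monocytes and 11.57 in Spic-negative monocytes. The monocyte arrays lay close together, and macrophages differed by -1.78 against Spic-negative and -1.69 against Spic-positive monocytes, which is 0.291 and 0.309 of the monocyte levels. Of the 12375 genes, 3.7% lay below Klf13 in the first of these comparisons and 3.2% in the second. A further probe set gave 9.20 in macrophages, 10.90 in Spic-positive and 11.54 in Spic-negative monocytes. The dim one gave 4.78 in macrophages, 5.68 in Spic-positive and 5.30 in Spic-negative monocytes, below the floor in macrophages. That last probe set differed by -0.51 against Spic-negative monocytes.

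Klf9, a target of glucocorticoid and thyroid hormone receptors and also a SIN3A-type repressor, was lowest in macrophages and intermediate in Spic-positive monocytes. Its brightest probe set read log2 9.66 in red pulp macrophages, 10.53 in Spic-positive monocytes and 11.08 in Spic-negative monocytes. The steps were -0.86 for macrophages against Spic-positive monocytes and -0.55 for Spic-positive against Spic-negative monocytes, which add up to -1.42. All 5 Klf9 probe sets above the floor had this order on the 3 arrays, with -1.42 to -3.51 for macrophages against Spic-negative monocytes. For 2 of these 5 probe sets the macrophage array was under the floor and both monocyte arrays were above it. The dimmer of the pair read 3.70 in macrophages, 5.59 in Spic-positive and 7.21 in Spic-negative monocytes, so its difference of -3.51 rests on a background level. The other 2 Klf9 probe sets were under the floor on all 3 arrays. With the median of all 7 probe sets, these included, Klf9 differed by -3.06 against Spic-negative and -2.50 against Spic-positive monocytes. The macrophage level in that median was 4.16, below the floor, so both values rest on a background level.

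Klf3, a repressor that recruits the corepressor CtBP and whose gene is switched on by KLF1 in mouse erythroid cells, followed the same order. It read log2 10.23 in red pulp macrophages, 11.22 in Spic-positive monocytes and 11.65 in Spic-negative monocytes. The difference of macrophages was -1.42 against Spic-negative monocytes and -0.99 against Spic-positive monocytes, just short of 2-fold. All 7 probe sets were lower in macrophages than in Spic-negative monocytes, 6 of them by 2-fold, over a range of -0.70 to -2.85. The -2.85 end comes from a probe set below the floor in macrophages. Spic-positive monocytes were also below Spic-negative monocytes on all 7, by -0.22 to -1.07. One of the 7, below the floor on both the macrophage and the Spic-positive array, was higher in macrophages than in Spic-positive monocytes by 0.14.

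Klf2, which holds lymphocytes and myeloid cells in a quiet state and is induced by MEF2 factors, was high on every array. Its only probe set read log2 11.77 in red pulp macrophages, 12.65 in Spic-positive monocytes and 12.07 in Spic-negative monocytes. Spic-positive monocytes were highest and macrophages lowest, with -0.88 between these and -0.30 between macrophages and Spic-negative monocytes. The difference of Spic-positive from Spic-negative monocytes, 0.58, was larger in size than that of 76.4% of all genes and still under 2-fold. Klf10, known as a gene induced early by TGF-beta, also has 1 probe set and read 9.44 in red pulp macrophages, 9.03 in Spic-positive monocytes and 9.62 in Spic-negative monocytes. Its largest difference was -0.58, for Spic-positive against Spic-negative monocytes, so the order of its 3 levels rests on differences below 2-fold.

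The probe sets of Klf4, a factor that mouse monocytes need for their development and that favours alternative activation of macrophages, disagreed in size on the macrophage array. The brightest read log2 12.30 in red pulp macrophages, 12.67 in Spic-positive monocytes and 12.62 in Spic-negative monocytes. The other read 10.41 in macrophages, 12.47 in Spic-positive and 12.34 in Spic-negative monocytes. Both were made from the same sequence record and gave monocyte differences of 0.06 and 0.14, while macrophages differed from Spic-negative monocytes by -0.31 on the first and -1.92 on the second. Among the 3181 genes with 2 probe sets above the floor, 88.1% had probe sets that were closer together than this gap of 1.61, and the median gap was 0.58. Among genes with as many probe sets as the member, this share was 87.7% for Klf6, 81.3% for Klf13 and 75.3% for Klf9. It was 69.3% for Klf7 and 55.9% for Klf3.

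Klf6, an activator of inflammatory genes in macrophages, split further. Its representative probe set read log2 11.89 in red pulp macrophages, 11.60 in Spic-positive monocytes and 11.37 in Spic-negative monocytes, an order with macrophages highest. A second bright probe set, made from another sequence record, read 10.70 in macrophages, 12.32 in Spic-positive and 11.69 in Spic-negative monocytes, with macrophages lowest. Over the 5 Klf6 probe sets macrophages differed from Spic-negative monocytes by -1.87 to 0.71, with 2 higher and 3 lower. The 2 that were higher come from the same sequence record and carry suffixes for probes that can match several transcripts. Between the monocyte arrays all 5 agreed, with Spic-positive monocytes higher by 0.18 to 0.63. No direction is given for Klf4 and Klf6 in macrophages beyond these values.

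**Figure D2:**
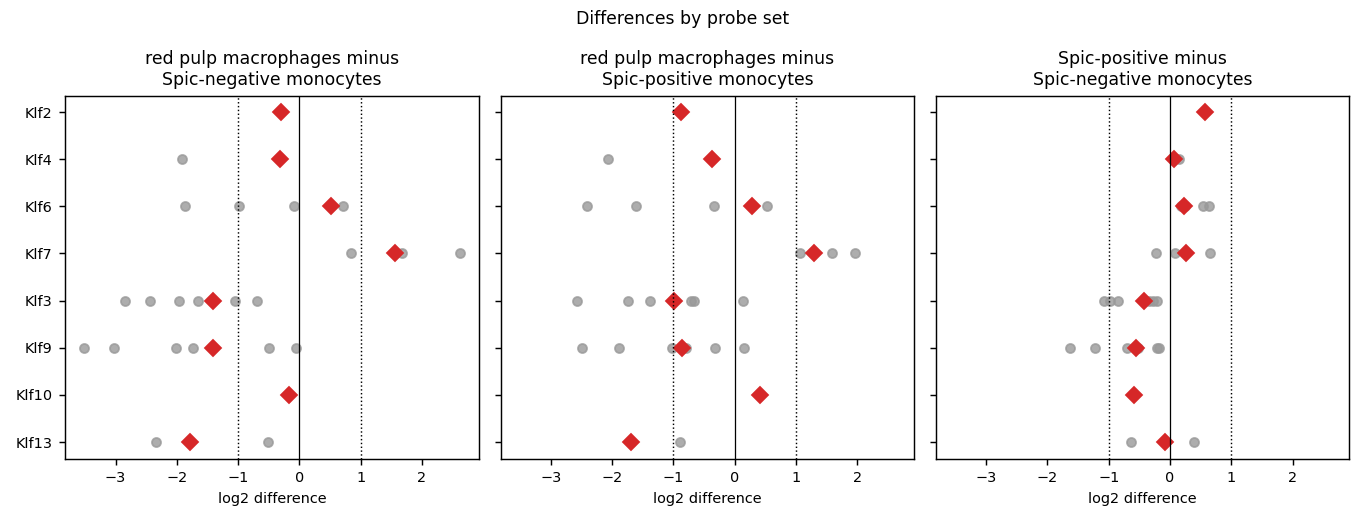
Log2 differences (horizontal axes) of each probe set, by gene, for macrophages minus Spic-negative monocytes, macrophages minus Spic-positive monocytes, and Spic-positive minus Spic-negative monocytes. Diamonds are the probe set with the highest mean, circles the others, and dotted lines mark 2-fold; in the first panel Klf6 spans -1.87 to 0.71 and Klf4 -1.92 to -0.31, while all probe sets of Klf3 and Klf9 lie below 0 and those of Klf7 above it.

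Counted by probe set, 3 of the 28 that passed the floor, all of Klf7, were higher by 2-fold or more in macrophages than in Spic-negative monocytes, and 15 were lower by as much. Among the 21774 probe sets with 1 symbol above the floor, the shares were 17.7% and 14.2%. Probe sets of a gene read the same RNA, and Klf3 with Klf9 supplied 11 of the 15, so these are not independent counts of genes. Against Spic-positive monocytes 4 were higher and 11 lower, with 21.1% and 13.6% of all probe sets. Between the monocyte arrays none of the 28 was 2-fold higher and 3 were 2-fold lower, 2 of Klf9 and 1 of Klf3, beside 3.14% and 5.13%.

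Macrophages were next set against the Spic-positive monocytes, which express the same reporter. By gene, Klf7 was the 1 member at least 2-fold higher and Klf13 the 1 at least 2-fold lower, beside 22.0% and 11.6% of all genes. The median of the members was -0.62, with 0.10 for all genes. Klf3, Klf2 and Klf9 came next after Klf13 at -0.99, -0.88 and -0.86. Both comparisons use the same macrophage array, so their values stand side by side and are not separate evidence.

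Spic-positive and Spic-negative monocytes differed by less than 2-fold in all 8 members, from -0.58 for Klf10 to 0.58 for Klf2, with 4 members above and 4 below 0 and a median of -0.01. In this comparison 3.49% of all genes were higher and 3.06% lower by 2-fold or more, so a count of 0 among 8 lies near the background. Of the genes past 2-fold, 53.3% were higher. This share was 42.4% with arrays centred on their medians, 61.1% after quantile normalization again and 63.3% after cyclic loess. Klf9 and Klf3, at -0.55 and -0.43, were the members whose probe sets above the floor were all lower, besides Klf10 with its 1 probe set. The Klf2, Klf4 and Klf6 probe sets were all higher, by 0.06 to 0.63.

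**Figure D3:**
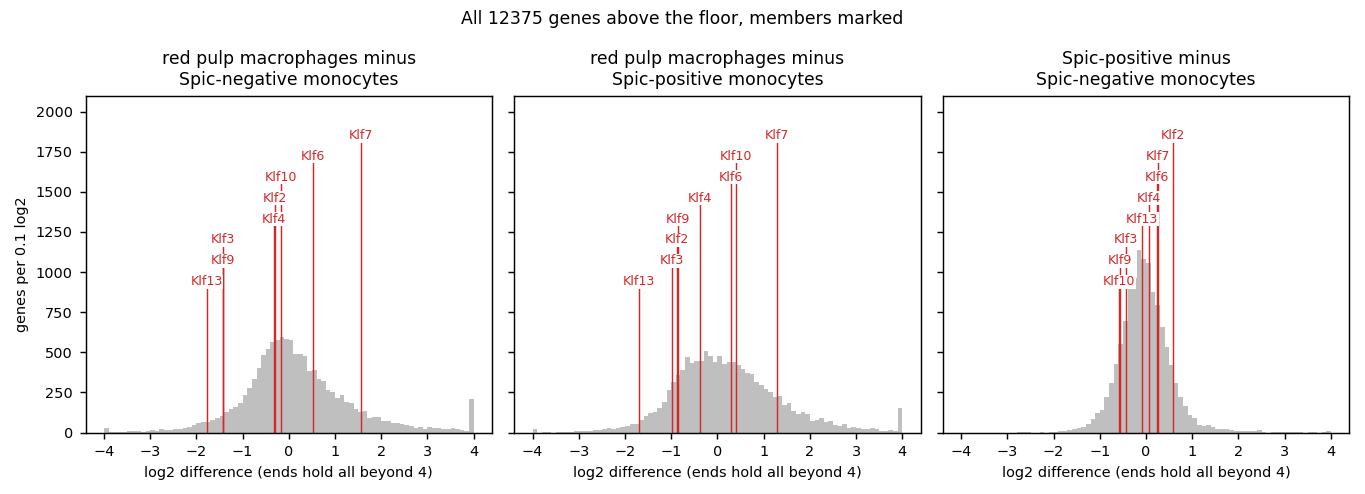
Distribution of log2 differences (horizontal axes) of all 12375 genes above the floor in grey, in genes per 0.1 log2 (vertical axis), with the 8 members as red stems whose height only separates the names. Klf13 at -1.78 and Klf7 at 1.56 are the outermost members in the first panel, and all 8 lie within 0.6 of 0 between the monocyte arrays.

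The rest of the family gave a wider picture. Of 9 other KLF genes listed, 8 were measured and 6 were above the floor. In macrophages against Spic-negative monocytes Klf1, the erythroid master regulator, was higher by 4.77 and Klf15, a regulator of amino acid and glucose metabolism induced by glucocorticoids, by 3.01, and Klf11, a SIN3A-type repressor close to Klf10, differed by -1.03. On the monocyte arrays Klf1 and Klf15 did not reach the floor, with Klf1 at 4.52 in Spic-positive and 4.70 in Spic-negative monocytes and Klf15 at 3.65 in Spic-positive and 3.46 in Spic-negative monocytes, so the size of these differences depends on background. Klf5, Klf14 and Klf16 differed by less than 2-fold, and Klf12 and Klf17 were below the floor on every array. Of 9 SP genes, which encode zinc finger factors of the same GC-rich sites, 7 were measured and 5 were above the floor. Of these only Sp3 passed 2-fold, at 8.24 in macrophages, 8.37 in Spic-positive and 9.34 in Spic-negative monocytes. None of the KLF or SP genes passed 2-fold between the monocyte arrays.

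Regulators upstream of KLF genes were read from lists that were chosen with earlier results of these data known. The kinase ERK5 (Mapk7) and MEF2 factors drive Klf2 and Klf4 in endothelium, and FOXO1 drives Klf2 in T cells. Of 7 genes of this list, 3 were at least 2-fold lower in macrophages than in Spic-negative monocytes and none was higher, with a median of -0.60. Mef2c read 7.67 in macrophages, 9.85 in Spic-positive and 9.48 in Spic-negative monocytes. Mef2a read 9.46 in macrophages, 10.58 in Spic-positive and 11.11 in Spic-negative monocytes, and Mapk7 read 6.54 in macrophages, 7.55 in Spic-positive and 7.67 in Spic-negative monocytes. All 3 were lowest in macrophages, and Mef2c was highest in Spic-positive monocytes. The Klf2 gene itself, with the MEF2 match shown above, was at -0.30 in that comparison.

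Glucocorticoid response genes were read because this hormone induces Klf9. The clock gene Per1, a direct target of the glucocorticoid receptor, read 9.45 in macrophages, 11.07 in Spic-positive and 11.61 in Spic-negative monocytes. Zbtb16, another target, read 5.05 in macrophages, 5.47 in Spic-positive and 7.20 in Spic-negative monocytes. The kinase gene Sgk1 went the other way, at 12.59 in macrophages, 11.42 in Spic-positive and 11.46 in Spic-negative monocytes. All 6 genes of the list, the receptor gene Nr3c1 among them, read lower in Spic-positive monocytes, set against Spic-negative monocytes, by -0.04 to -1.73, with a median of -0.67 and 1 past 2-fold. In macrophages against Spic-negative monocytes 2 of the 6 were lower and 1 higher by 2-fold. Against Spic-positive monocytes 1 was lower, Per1, and 2 were higher, Nr3c1 and Sgk1, with a median of 0.11. Klf9 was at -1.42 in macrophages and -0.55 in Spic-positive monocytes, each against Spic-negative monocytes.

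TGF-beta induces Klf10, and of 8 TGF-beta and SMAD genes Tgfbr2, a receptor chain, was higher in macrophages than in Spic-negative monocytes by 1.17. Tgfb1, the ligand gene, differed by -1.58 and Smad4, the shared signal transducer, by -1.10. Between the monocyte arrays the 8 genes lay within -0.29 and 0.18. Among 12 cofactor genes, 2 passed 2-fold downwards in macrophages, Ctbp2 at -1.21, a partner of KLF3, and the acetyltransferase gene Ep300 at -1.15. Ctbp1, the other CtBP gene of the list, differed by -0.37 in the same comparison. Sin3a and Sin3b, partners of KLF9 and KLF13, differed by 0.43 and 0.70. Of 5 ubiquitin ligase genes that act on KLF proteins or their relatives, Wwp1, which marks KLF2 for degradation, read 10.19 in macrophages, 7.76 in Spic-positive and 7.84 in Spic-negative monocytes.

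Described target genes were read last. Of 5 genes that KLF2 activates in lymphocytes or endothelium, 4 were measured, and 3 of these passed the floor on the macrophage or the Spic-negative array, a condition added after the data were seen. All 3 were at least 2-fold lower in macrophages than in Spic-negative monocytes. Thbd, the anticoagulant receptor thrombomodulin, read 5.99 in macrophages, 9.68 in Spic-positive and 10.52 in Spic-negative monocytes. Itgb7, an integrin chain for homing to the gut, read 9.03 in macrophages, 9.85 in Spic-positive and 11.05 in Spic-negative monocytes. Nos3, the endothelial nitric oxide synthase gene, read 4.40 in macrophages, 6.56 in Spic-positive and 7.30 in Spic-negative monocytes. Each of these 3 was lowest in macrophages, where Nos3 was below the floor, and highest in Spic-negative monocytes. The fourth gene, S1pr1, the receptor that lets lymphocytes leave lymphoid tissue, was below the floor in macrophages and in Spic-negative monocytes and read 6.44 in Spic-positive monocytes, where B cell transcripts were also higher, so its difference of -1.14 between macrophages and Spic-negative monocytes lies within background. Of 5 genes that KLF4 favours in alternatively activated mouse macrophages, Mrc1, the mannose receptor, was higher by 6.24, Pparg by 3.77 and Arg1, arginase, by 2.14. Arg1 was below the floor on both monocyte arrays, at 4.57 in Spic-positive and 3.69 in Spic-negative monocytes, so the size of its difference depends on background. Retnla differed by 0.94 and Chil3, also a classical monocyte gene, by -1.29.

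**Figure D4:**
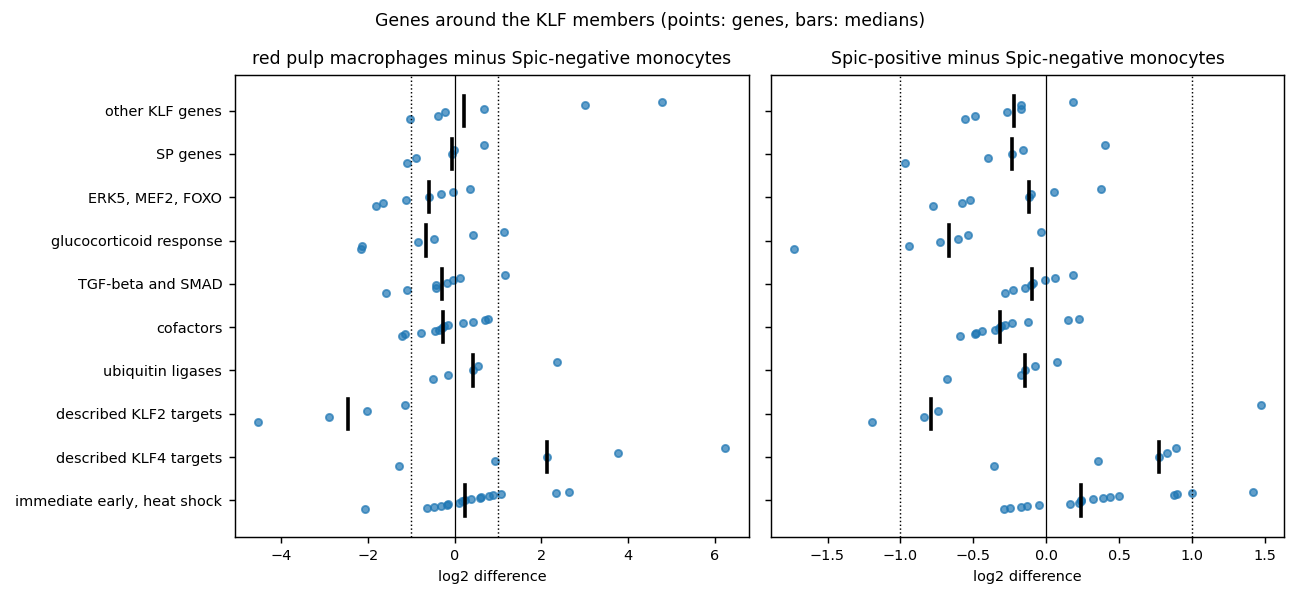
Log2 differences (horizontal axes) of the genes above the floor in 10 lists around the KLF members, for macrophages minus Spic-negative monocytes and for Spic-positive minus Spic-negative monocytes, with black bars at the list medians and dotted lines at 2-fold. In the first panel described KLF2 targets have their median at -2.46, or -2.90 without S1pr1, which is below the floor on both arrays compared, and described KLF4 targets at 2.14, the value of Arg1, which is below the floor in monocytes.

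Immediate early and heat shock genes, which like Klf2, Klf4, Klf6 and Klf10 can respond quickly when tissue is taken apart and cells are handled, were high on all 3 arrays, with medians of 12.06 in macrophages, 11.99 in Spic-positive and 12.01 in Spic-negative monocytes over 17 genes. Egr1, Egr2 and Egr3 were at least 2-fold higher and Nr4a1 at least 2-fold lower in macrophages than in Spic-negative monocytes. Between the monocyte arrays Egr3 was the 1 gene past 2-fold.

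Transcripts of other cells moved with the arrays. Of 10 measured erythroid markers, 8 were at least 2-fold higher in macrophages than in Spic-negative monocytes and the others, Epb42 and Hba-a1, were below the floor on all arrays. Probe sets that Hba-a1 shares with Hba-a2 were not used. The erythroid signal summed on the linear scale was 11760 in macrophages, 807 in Spic-positive and 323 in Spic-negative monocytes. Without Tspan33, which differed by -0.22 between macrophages and Spic-positive monocytes and by 1.98 between Spic-positive and Spic-negative monocytes, the sums were 11247 in macrophages, 211 in Spic-positive and 172 in Spic-negative monocytes, a choice made after the data were seen. Natural killer cell markers were higher in macrophages in 4 of 7, with sums of 1383 in macrophages, 319 in Spic-positive and 258 in Spic-negative monocytes. T cell markers were higher in macrophages in 4 of 7 above the floor, with sums of 752 in macrophages, 308 in Spic-positive and 277 in Spic-negative monocytes. B cell markers summed to 1905 in macrophages, 2550 in Spic-positive and 611 in Spic-negative monocytes, and 8 of 9 were 2-fold or more above the Spic-negative level in Spic-positive monocytes. Lymphocytes express Klf2, Klf3, Klf7 and Klf13, and erythroid cells Klf3 and Klf13, and the part of these cells in the KLF values was not tested. Of 9 endothelial markers, 6 were below the floor on every array, among them Tek and Tie1, and Cdh5 reached no more than 5.20, in macrophages. Pecam1, shared with platelets and leukocytes, was at 7.18 in macrophages, 5.16 in Spic-positive and 5.28 in Spic-negative monocytes, and Kdr at 6.54 in macrophages, 7.93 in Spic-positive and 6.14 in Spic-negative monocytes.

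Platelet, dendritic cell and neutrophil markers moved gene by gene. Of 6 platelet markers above the floor, Pf4 and Ppbp passed 2-fold in macrophages against Spic-negative monocytes, at 3.97 and 4.85, and the list summed to 1406 in macrophages, 447 in Spic-positive and 346 in Spic-negative monocytes. Of 6 dendritic cell markers above the floor, Ccr7 differed by 4.05 and Zbtb46 by 1.25 between Spic-positive and Spic-negative monocytes, and the list summed to 1478 in macrophages, 2208 in Spic-positive and 1237 in Spic-negative monocytes. In macrophages against Spic-negative monocytes 3 of the 6 were higher and 1 was lower by 2-fold. Of 8 neutrophil markers, Ltf was higher by 1.46 in macrophages than in Spic-negative monocytes, and Mmp8 and Cxcr2 differed by -3.38 and -1.49, while the sums, carried by a few bright genes, were 30964 in macrophages, 34118 in Spic-positive and 31066 in Spic-negative monocytes. The part of these cells in the KLF values was not tested either.

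The genes whose pattern over the 3 arrays was closest to each of the 4 members past 2-fold were named by the Euclidean distance between log2 profiles centred on their own means. For Klf13 they were Macroh2a1, a histone variant gene, at 0.009, Stat3, a cytokine signal transducer, at 0.043, and Chtf8 at 0.052. For Klf9 they were Btla, an inhibitory lymphocyte receptor gene, at 0.003, Tmem185b at 0.031 and Rbak at 0.039. Klf3 lay nearest to BC147527 at 0.015, Rprd2 at 0.020 and Sh3pxd2b at 0.022. Klf7 lay nearest to Ehd3 at 0.018, the kinase gene Pdk1 at 0.025 and Jchain, the joining chain of antibodies, at 0.028. With 3 arrays such likeness is common: 156 genes lay within 0.25 of Klf13, 310 of Klf9, 350 of Klf3 and 315 of Klf7.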

How the data were processed

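The deposited table holds log2 expression of probe sets, made by the authors with RMA per the submitters' processing notes. RMA corrects background, quantile-normalizes arrays and summarises probes; its version was not given in the sources used. The log2 scale was inferred from the values, 1.82 to 14.50. Labelled RNA came from a 2-cycle amplification, per the labels' protocols, which shortens RNA and can weaken probe sets far from the 3' end. Quantile normalization hides differences in total RNA per cell.

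Of 45101 probe sets, 64 controls were left out. Symbols were updated through the gene identifier. A gene took its probe set with the highest mean, and 12375 of 18193 genes had an array above the floor of log2 5.02, the median of all probe sets. Differences are log2 values of 1 array minus another, counted at 2-fold. With 1 array per group, no test was possible. The number of arrays limits the precision. The members and gene lists were chosen with earlier results of these data known. Named are the members, the genes of the lists, the sort genes and, for members past 2-fold, the 3 nearest patterns. The steps were tested on simulated data.

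Alternatives were the mean or median of probe sets, no _x_at or _s_at probe sets, 3 scalings, 2 floors and 2 folds. Python 3.11.15, numpy 2.4.6, pandas 2.3.3, scipy 1.17.1, matplotlib 3.10.9, R 4.3.3 and limma 3.58.1 (cyclic loess) were used.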

Additional observations from a re-analysis of the deposited data

How the results depend on the processing

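No paired analysis was possible because each population had 1 array. The counts for Spic-positive against Spic-negative monocytes were 0 under all 10 alternatives, 1.5-fold included. At 4-fold no member differed between macrophages and either monocyte array (0 in each direction). For macrophages against Spic-positive monocytes, the 1 lower member became 4 with the mean or the median of probe sets (Klf3, Klf4, Klf9 and Klf13), 2 without _x_at and _s_at probe sets (Klf6 and Klf13), 3 after quantile normalization again (Klf3, Klf9 and Klf13), 2 after cyclic loess (Klf3 and Klf13) and 4 at 1.5-fold (Klf2, Klf3, Klf9 and Klf13). Klf4 joined Klf3, Klf9 and Klf13 as lower against Spic-negative monocytes with the mean or median of probe sets. Klf6 reversed against Spic-positive monocytes, to -1.61, without _x_at and _s_at probe sets. This value comes from a probe set with a mean of 11.57 over the arrays. Another Klf6 probe set, nearly as bright with a mean of 11.53, differed by -0.34. The difference of Klf6 from Spic-negative monocytes lay between -0.98 and 0.65 over the alternatives. Klf4 reached -1.12 against Spic-negative and -1.22 against Spic-positive monocytes with the mean of its probe sets. These values of Klf4, and the lower values of Klf6, come from the choice of probe set, and which probe set is right was not tested. The cause of the changes under other scalings was not tested. Against Spic-negative monocytes Klf7 lay between 1.52 and 1.67, Klf13 between -2.34 and -1.54, Klf3 between -1.73 and -1.31 and Klf9 between -3.06 and -1.34. Klf9 lay between -2.50 and -0.74 against Spic-positive monocytes. The -3.06 and -2.50 of Klf9 come from the median of probe sets, with a macrophage level below the floor. Between the monocyte arrays the sign changed for Klf4 (0.06, but -0.02 with centred arrays), Klf13 (-0.09, but 0.04 after cyclic loess) and Klf7 (0.26, but -0.07 with the median of probe sets). Klf13 was -0.64 there with the median of probe sets. The median of all genes for macrophages against Spic-positive monocytes moved to 0.23 with centred arrays and -0.03 after quantile normalization again, against 0.10 as reported. Without animals as replicates, differences near 2-fold cannot be told from array error.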
